A study of Mus musculus with 18 samples.

Results

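The genes described here are 40 genes of cardiac fibroblasts, of the epicardium and of the extracellular matrix other than collagens, measured in mouse atria. They were chosen by symbol with earlier results of these data known, so their counts beside the shares of all genes are descriptions. Each was found as 1 row of the count table, so they are 40 of 56691 gene IDs. By role they comprise 8 fibroblast identity genes, 6 leucine-rich proteoglycans, 6 fibre proteins and fibre glycoproteins, 5 genes of matrix crosslinking and processing, 11 matricellular and activation genes, and 4 epicardial and mesothelial genes. Messenger RNA was sequenced in bulk from the left atrium (LA) and the right atrium (RA) of mice labelled WT, Het or KO for Zfhx3, a zinc finger homeobox transcription factor gene, with WT as the control. The labels name no allele, no Cre driver, no strain, age or sex and no treatment, so what the Het and KO groups carry beyond those names is unknown here. Going by the IDs in the titles, 9 animals were used, 3 per genotype, and both atria were taken from each. WT RA replicates 1 and 2 have identical columns of counts and enter as a single library, which leaves n = 2 in WT RA, n = 3 in every other group and 17 libraries in all.

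Fibroblasts of the atrial wall secrete and remodel the matrix between the muscle cells. Its elastic fibres, of elastin and fibrillin, give the wall its recoil, and lysyl oxidases crosslink the elastin in them. Fibronectin forms other fibres of this matrix. Small leucine-rich proteoglycans such as decorin bind matrix fibres and growth factors, and matricellular proteins such as periostin and thrombospondins signal to cells more than they bear load. The epicardium is a mesothelial sheet on the outside of the heart, from which many cardiac fibroblasts descend during development. More fibroblasts and more matrix in atrial walls are a known feature of the tissue in atrial fibrillation.

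Between 18000583 (WT LA replicate 3) and 33483085 counts (KO LA replicate 3) were assigned to genes in a library. Levels are given as counts per 1000000 counts of a library (CPM) after TMM scaling, a factor per library that sets the bulk of genes level, and within a group the values follow the order of replicates 1, 2 and 3. Zfhx3 itself was at 13.9 to 20.3 CPM in WT, 16.3 to 19.9 CPM in Het and 14.8 to 18 CPM in KO libraries, so its 3 groups overlapped. The exons that the alleles affect are not named in the labels, so a gene-level count does not check the genotype labels. Bmp10, a gene of the right atrium, was at 7220 to 9280 CPM in RA and at 0.972 to 4.88 CPM in LA libraries, as the tissue labels say. Xist, which is transcribed from an inactive X, was at 0.811 to 1.1 CPM in every WT library, at 575 to 706 CPM in every Het library, and at 697 and 767 CPM in LA and RA of KO replicate 1, against 0.403 to 0.947 CPM in KO replicates 2 and 3. Ddx3y, a gene of the Y chromosome, was at 0 in every Het library and in both of KO replicate 1, and at 109 to 176 CPM in all others. In every comparison of Het with WT, genotype and this sex pattern therefore cannot be told apart.

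WT LA replicate 3 stood apart in these genes. It was the lowest of the 9 LA libraries in 34 of the 40, against 23.6% of all genes with a mean of at least 10 counts. Its summed level over the 40 was 2610 CPM, where WT LA replicates 1 and 2 had 4900 and 5430 CPM and Het and KO LA libraries had 5540 to 7920 CPM. Macrophage markers were also low there, at a mean of 2.42 log2 CPM over 12 genes where WT LA replicates 1 and 2 had 4.38 and 4.47, as were endothelial markers (6.23, against 6.69 and 6.64), while cardiomyocyte markers were highest (11.74, against 11.54 in both). What part these play in the results was not tested. The counts of calls in LA against WT, and the medians of the 40 and of the role groups, are therefore given with and without this library.

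All 40 genes passed the filter on low counts in every comparison, and their levels spanned a wide range. Per kilobase of annotated exon, the mean over 17 libraries was highest for Gsn, which encodes the actin-severing protein gelsolin, at 615 CPM per kilobase. Next came the proteoglycan Dcn at 190, the fibroblast matrix gene Dpt at 107, Sparc at 85.2 and Bgn at 84.1 CPM per kilobase. Epicardial Upk3b (39.2 CPM per kilobase), Msln (19.1), Aldh1a2 (14.9) and Wt1 (3.69) were all measured well above 0, as were the fibroblast markers Pdgfra (9.78), Ddr2 (6.46) and Tcf21 (6.32). At the low end stood Thbs4 (1.01 CPM per kilobase), Cilp (0.634), Fap (0.412), Cthrc1 (0.253) and Tnc (0.0873). Cthrc1, a marker of activated fibroblasts, had 3 to 31 counts in a library and Tnc, a tenascin of injured tissue, 2 to 34, so both are imprecise. Of the 40 genes, 19 overlap another annotated gene, 18 of them on the other strand, and no label says whether counting used strand, so the reads of such partners cannot be told apart and these members are uncertain to that extent. They are Pdgfra, Tcf21, Ddr2, Pi16, Dpt, Gsn, Ogn, Prelp, Fn1, Fbn1, Eln, Lox, Loxl2, Pcolce, Smoc2, Thbs1, Tnc, Vcan and Aldh1a2.

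**Figure D1:**
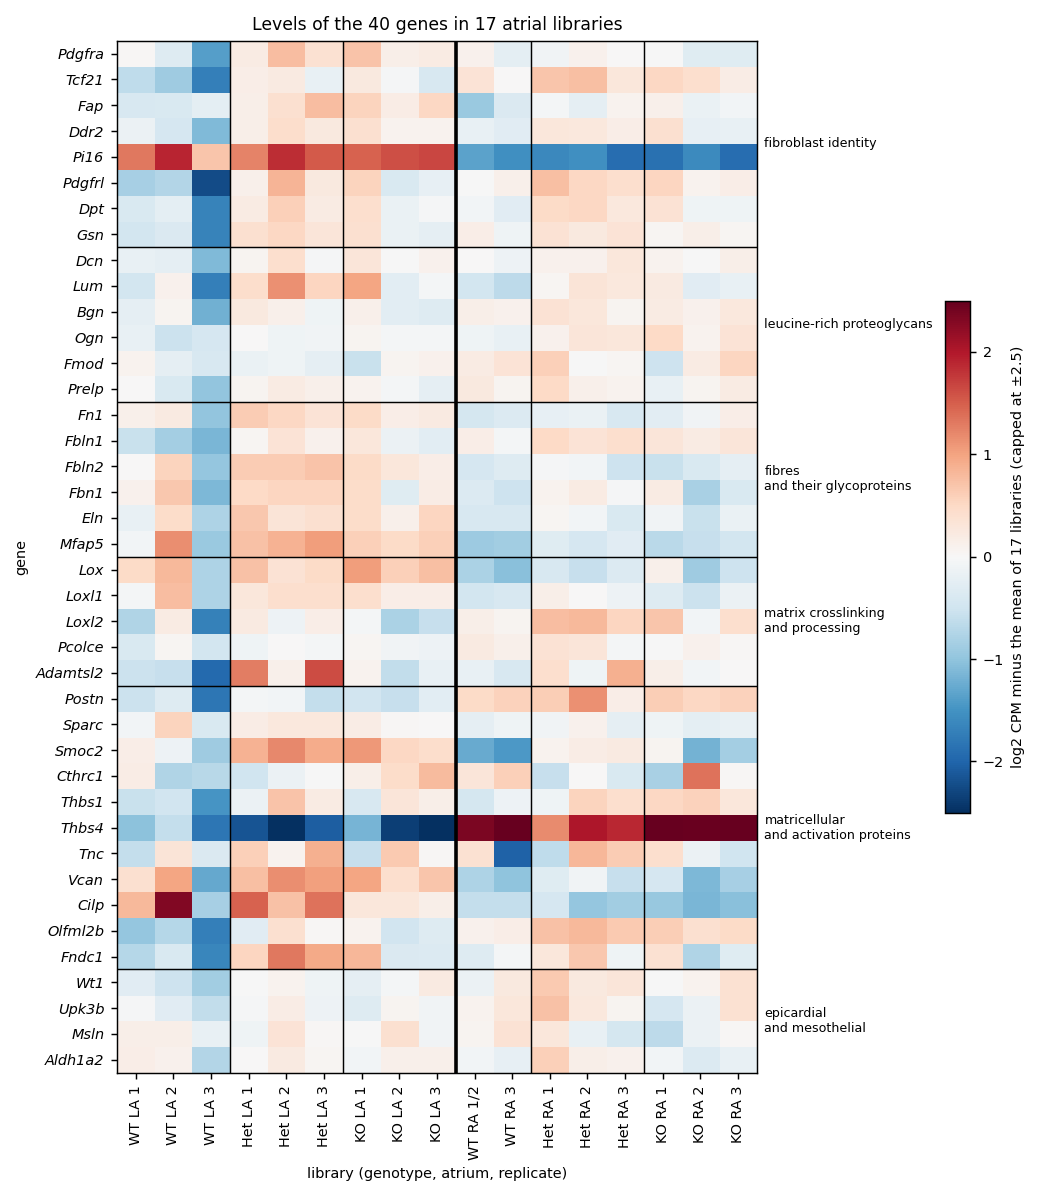
Level of each of the 40 genes (rows, grouped by role) in each of the 17 libraries (columns, by genotype, atrium and replicate), as log2 CPM minus the gene's mean over the 17 libraries, with the colour scale capped at 2.5 either way. WT LA replicate 3 is the lowest LA library in 34 of 40 rows, and Pi16 and Thbs4 divide LA from RA in opposite directions.

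In the left atrium, 4 of the 40 genes were higher in KO than in WT and none was lower: the fibroblast protease gene Fap, the proteoglycan gene Ogn, the fibre glycoprotein gene Fbln1 and the epicardial transcription factor gene Wt1. A call here is an adjusted p under 0.05 in the quasi-likelihood test of edgeR, adjusted by Benjamini-Hochberg over all genes tested, of which 7.81% were called in this comparison, 3.42% higher and 4.39% lower. At an unadjusted p under 0.05, 12 of the 40 were higher (12% of all genes) and 0 lower (13.5%). Values above 0 on the log2 scale were found in 37 of the 40, against 49.9% of all genes, with a median of 0.40 against -0.00 over all genes. KO libraries all lay above WT libraries in 15 of the 40, against 15% of all genes, and below them in none (15%). More fibroblasts in a piece of atrium and more RNA per fibroblast cannot be told apart in bulk samples.

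Heterozygous left atria showed more calls. Against WT, 8 of the 40 were higher and none lower, where 9.4% of all genes were called, 4.02% higher and 5.38% lower, and at an unadjusted p under 0.05 there were 17 higher (12.9% of all genes) and 1 lower (14%). These were the fibroblast identity genes Tcf21, Fap and Pdgfrl, the fibre glycoprotein gene Fbln1, the matrix processing gene Adamtsl2, and the matricellular genes Smoc2, Olfml2b and Fndc1. The median of the 40 was 0.56 against -0.00 over all genes, and 37 of 40 lay above 0, against 49.6% of all genes. Het libraries all lay above WT libraries in 20 genes (16.6% of all genes) and below them in 1, Thbs4 (15.6%). Both comparisons use the same WT libraries, so they are not independent of each other. Scaling by library totals alone, without TMM factors, moved the median of all genes by 0.18 in KO and 0.24 in Het. Of the genes called, the share that was higher went from 43.8% to 91.3% in KO and from 42.7% to 94.8% in Het. The values given here are relative to the TMM scale. Under the other scaling 6 members were called in KO and 15 in Het, all higher. Of 16974 genes tested, it called 2734 higher in KO and 4293 in Het.

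**Figure D2:**
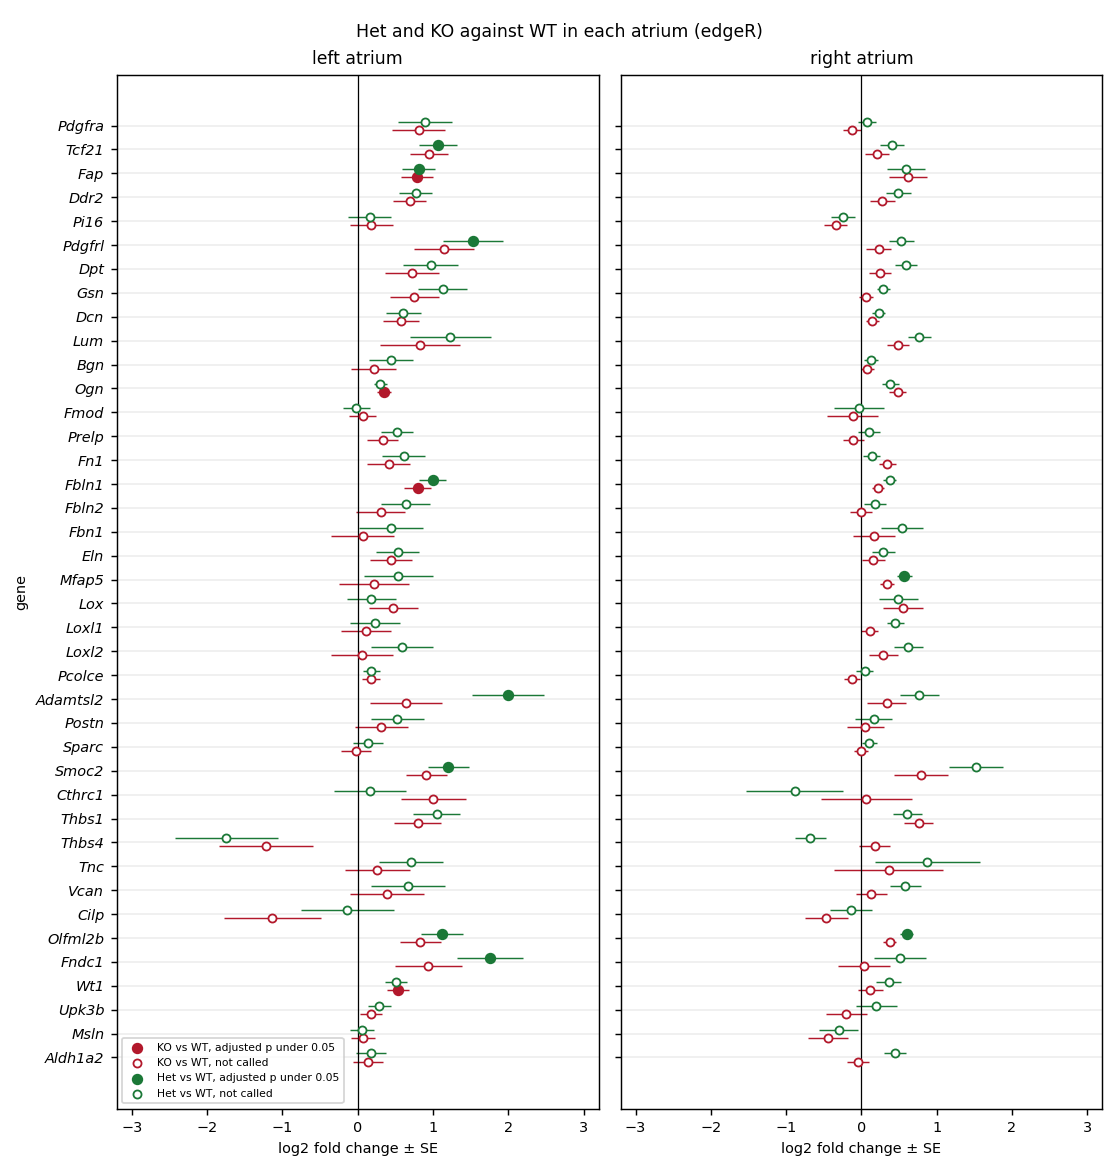
Log2 fold change with its SE for each of the 40 genes in Het (green) and KO (red) against WT, in LA (left panel) and RA (right panel), from edgeR's quasi-likelihood fit. Filled points passed an adjusted p of 0.05, which holds for 8 Het and 4 KO points in LA and for 2 Het points in RA.

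Fibroblast identity genes were the role group with the largest median difference in LA, at 0.77 in KO and 0.93 in Het against WT. Of the 8, 1 was called in KO and 3 in Het, and in 7 of the 8 the KO libraries lay above all WT libraries, as did the Het libraries in 7. Tcf21, a transcription factor that marks resident fibroblasts, was at 8.91, 7.41 and 4.15 CPM in WT LA, 15.5, 16.2 and 12.2 CPM in Het LA and 16.3, 13.6 and 10.4 CPM in KO LA. Every Het and KO library lay above every WT library. In edgeR's quasi-likelihood test the log2 difference was 1.07 (SE 0.26, adjusted p = 0.0361) in Het and 0.95 (adjusted p = 0.056) in KO. Fap, a cell surface protease of activated fibroblasts, was at 1.69, 1.70 and 1.88 CPM in WT LA, 2.47, 2.98 and 3.90 CPM in Het LA and 3.33, 2.54 and 3.22 CPM in KO LA, again with no overlap between WT and the others. Here WT LA replicate 3 was the highest WT library, and edgeR's log2 differences were 0.81 (SE 0.22, adjusted p = 0.0412) in Het and 0.79 (SE 0.22, adjusted p = 0.048) in KO. Pdgfrl, which encodes a secreted protein related to the PDGF receptors, was at 3.75, 4.02 and 1.36 CPM in WT LA, 7.35, 12.1 and 8 CPM in Het LA and 9.99, 5.15 and 5.83 CPM in KO LA. The Het and KO values all exceeded the WT values, with edgeR differences of 1.53 (SE 0.40, adjusted p = 0.0489) in Het and 1.14 (adjusted p = 0.12) in KO.

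The other fibroblast identity genes had values above 0 in both comparisons and did not pass the test. Pdgfra, the receptor used most often to mark fibroblasts, was at 95.9, 74.6 and 36.0 CPM in WT LA, 108, 159 and 121 CPM in Het LA and 154, 103 and 108 CPM in KO LA, with edgeR adjusted p = 0.165 and 0.214. Ddr2, a collagen receptor, averaged 40.9 ± 13 CPM (SD, n = 3) in WT, 70.7 ± 7.68 CPM in Het and 66.6 ± 8.36 CPM in KO. Gsn averaged 1120 ± 466 CPM (SD, n = 3) in WT, 2460 ± 175 CPM in Het and 1890 ± 482 CPM in KO, and its edgeR adjusted p was 0.0743 and 0.203. Pi16, a marker of adventitial fibroblasts, was the member of this group with overlapping libraries, at 64.1 ± 25.9 CPM (SD, n = 3) in WT, 72.5 ± 15.4 CPM in Het and 73.5 ± 5.05 CPM in KO.

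Of the 6 leucine-rich proteoglycans, 1 was called in KO and none in Het, and the group's median was 0.34 in KO and 0.48 in Het. Ogn, or osteoglycin, was at 161, 126 and 137 CPM in WT LA, 184, 168 and 172 CPM in Het LA and 190, 177 and 175 CPM in KO LA. The WT values were all lower than the others, and the KO values varied little. In edgeR's test the difference was 0.35 (SE 0.09, adjusted p = 0.0366) in KO and 0.30 (adjusted p = 0.0538) in Het. Lum, or lumican, had larger but more variable values, at 112, 166 and 47.3 CPM in WT LA, 210, 339 and 224 CPM in Het LA and 305, 128 and 149 CPM in KO LA, with edgeR adjusted p = 0.199 in Het and 0.39 in KO. Dcn was at 799 ± 252 CPM (SD, n = 3) in WT, 1230 ± 210 CPM in Het and 1200 ± 131 CPM in KO, and Fmod, or fibromodulin, at 59.5 ± 10.6, 59.2 ± 2.39 and 62.7 ± 14.9 CPM, the smallest differences of the group.

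Among the 6 fibre proteins and fibre glycoproteins, Fbln1 was called in both comparisons and the other 5 in neither. Fbln1 encodes fibulin-1, a glycoprotein that associates with elastic fibres and fibronectin, and lies at chr15:85205949-85286535 on the plus strand. It was at 155, 126 and 103 CPM in WT LA, 238, 289 and 247 CPM in Het LA and 278, 205 and 189 CPM in KO LA, with no overlap between WT and either group. The edgeR fold was 2 (log2 1.0, SE 0.18, adjusted p = 0.0155) in Het and 1.74 (log2 0.80, SE 0.18, adjusted p = 0.0338) in KO. Fn1 (fibronectin), Fbln2 (fibulin-2), Eln (elastin), Fbn1 (fibrillin-1) and Mfap5 (a microfibril protein) had log2 differences of 0.07 to 0.44 in KO and 0.44 to 0.64 in Het. Elastin, for example, was at 46.2, 71.7 and 30.6 CPM in WT LA, 83.9, 65.6 and 68.9 CPM in Het LA and 71.7, 57.1 and 75.6 CPM in KO LA, so its groups overlapped.

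Of the 5 crosslinking and processing genes, Adamtsl2 was called in Het and none in KO. Adamtsl2 encodes a secreted glycoprotein that binds fibrillin microfibrils and latent TGF-beta. It was at 8.39, 8.18 and 3.11 CPM in WT LA, 29.9, 13.4 and 38.0 CPM in Het LA and 12.9, 7.99 and 10.8 CPM in KO LA. Het libraries lay above every WT and every KO library, and the edgeR fold of Het over WT was 3.98 (log2 1.99, SE 0.48, adjusted p = 0.0471). The lysyl oxidase genes Lox, Loxl1 and Loxl2 had log2 differences of 0.06 to 0.47 in KO and 0.18 to 0.59 in Het. Pcolce, whose product enhances procollagen cleavage, differed by 0.17 in KO and 0.18 in Het, and none of these 4 passed.

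Of the 11 matricellular and activation genes, 3 were called in Het, all higher, and none in KO. Smoc2, a secreted calcium-binding matrix protein of the SPARC family, was at 24.3, 20 and 11.8 CPM in WT LA, 39.7, 50.3 and 41.2 CPM in Het LA and 46.4, 31.1 and 29.6 CPM in KO LA. Every Het and KO library exceeded every WT library, and edgeR gave 1.20 (SE 0.27, adjusted p = 0.0362) in Het and 0.91 (adjusted p = 0.0842) in KO. Olfml2b, an olfactomedin-like secreted protein, was at 15.9, 19.1 and 9.46 CPM in WT LA, 25.7, 41.3 and 31.9 CPM in Het LA and 33, 22.4 and 25.1 CPM in KO LA, with edgeR differences of 1.12 (SE 0.28, adjusted p = 0.0453) and 0.83 (adjusted p = 0.11). Fndc1, a fibronectin type III domain protein, was at 5.63, 7.04 and 2.92 CPM in WT LA, 13.4, 23.2 and 17.7 CPM in Het LA and 16.5, 7.14 and 7.25 CPM in KO LA. Here KO replicates 2 and 3 lay just above the highest WT library, while Het lay far above it, and edgeR gave 1.75 (SE 0.44, adjusted p = 0.0496) in Het and 0.94 (adjusted p = 0.236) in KO.

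The remaining matricellular genes showed no call in LA. Postn, or periostin, the most used marker of fibroblast activation in the heart, was at 66.6, 77.3 and 27.8 CPM in WT LA, 93.2, 93.1 and 64.4 CPM in Het LA and 69.7, 65.3 and 80.6 CPM in KO LA, so its groups overlapped (edgeR adjusted p = 0.388 and 0.637). Cilp, a cartilage matrix protein also made by cardiac fibroblasts, ranged from 1.1 to 10.4 CPM within WT LA alone. Thbs1, a thrombospondin that can activate TGF-beta, differed by 1.05 in Het and 0.80 in KO (edgeR adjusted p = 0.0689 and 0.151). Thbs4, another thrombospondin, had differences of -1.75 in Het and -1.22 in KO (edgeR adjusted p = 0.127 and 0.249), with Het below every WT library, on 2 to 23 counts in an LA library. The remaining members of the group had Het and KO differences of 0.13 and -0.03 (Sparc), 0.16 and 1.0 (Cthrc1), 0.71 and 0.26 (Tnc) and 0.66 and 0.39 (Vcan).

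Of the 4 epicardial and mesothelial genes, Wt1 was called in KO. It was at 18.1, 15.4 and 12.2 CPM in WT LA, 21.9, 23.5 and 20.6 CPM in Het LA and 19.1, 21.6 and 26.0 CPM in KO LA. All Het and KO libraries lay above all WT libraries, with edgeR differences of 0.53 (SE 0.14, adjusted p = 0.0486) in KO and 0.51 (adjusted p = 0.0505) in Het. The other epicardial members differed less: Upk3b (uroplakin 3B) by 0.18 and 0.29 in KO and Het, Msln (mesothelin) by 0.07 and 0.05, and Aldh1a2, a retinoic acid synthesis enzyme, by 0.14 and 0.17, with no call.

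These LA calls rested on few animals. Without WT LA replicate 3 none of the 40 was called in KO, where Fbln1 was at 0.67 (edgeR adjusted p = 0.0787). In Het 4 were then called, Fbln1 (0.88, edgeR adjusted p = 0.0361), Tcf21 (0.85, adjusted p = 0.042), Gsn (0.83, adjusted p = 0.0353) and Ddr2 (0.56, adjusted p = 0.0414), and the median of the 40 was 0.17 in KO and 0.31 in Het, where 1.28% of all genes were called higher in KO and 1.95% in Het. The medians by role were then 0.50 in KO and 0.74 in Het for fibroblast identity, 0.23 and 0.30 for proteoglycans, 0.07 and 0.32 for fibre genes, 0.08 and 0.10 for crosslinking, 0.17 and 0.27 for matricellular and 0.01 and 0.06 for epicardial genes. None was called in KO either without WT LA replicate 2 or without any 1 KO LA replicate, nor with the KO and WT libraries alone in the fit. Those fits called 249 to 662 of all genes. In Het, 3 were called without WT LA replicate 2, 2 without Het LA replicate 1 (Fbln1 and Fap), 1 without Het LA replicate 2 (Adamtsl2) and 1 without Het LA replicate 3 (Fbln1). These fits called 307 to 832 of all genes. DESeq2 called 11 in KO and 15 in Het, all higher. Over all genes it called 1846 in KO, 938 of them higher, and 2183 in Het, 1108 of them higher. Cardiomyocyte markers, as a mean over the list, were at 11.54 to 11.74 log2 CPM in WT LA, 11.30 to 11.37 in Het LA and 11.33 to 11.48 in KO LA, so each Het and KO library was below each WT library. Mitochondrial transcripts took 24.1 to 26.7% of counts in WT LA, 18.6 to 19.7% in Het LA and 19.3 to 22.3% in KO LA, and IDs without a symbol 1.71 to 2.63% in WT, 0.418 to 1.61% in Het and 1.01 to 1.6% in KO libraries of both atria, so WT stood above the others in both. The part of these in the result was not tested. Most lung epithelium and adipocyte genes were near 0, with Sftpc at 0 counts in 13 of 17 libraries and Adipoq in 12. On the same lists, Ager had 3 to 18 counts in a library and Cidea 50 to 279 (up to 8.1 CPM).

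**Figure D3:**
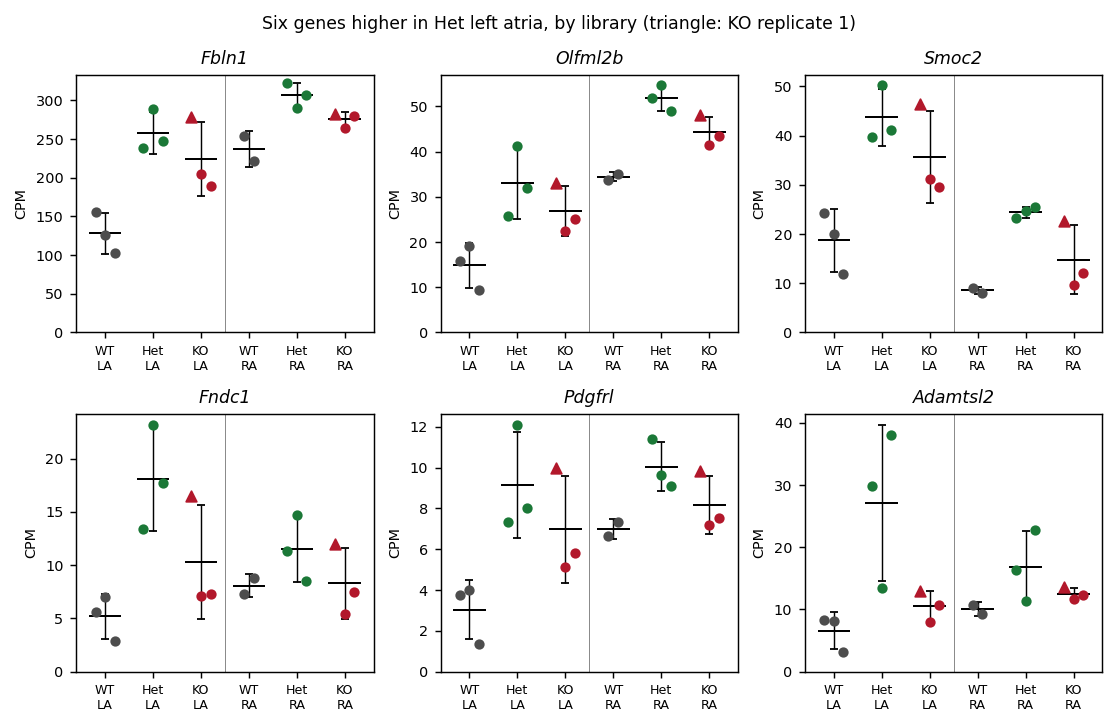
CPM of Fbln1, Olfml2b, Smoc2, Fndc1, Pdgfrl and Adamtsl2 in each library, by genotype and atrium, with the mean (horizontal bar) and SD (vertical bar). Each was called higher in Het than in WT in LA, and KO replicate 1, drawn as a triangle, lies above both other KO replicates in the LA column of each panel.

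In the right atrium, 2 of the 40 genes were higher in Het than in WT, Olfml2b and Mfap5, and none was lower, where edgeR called 0.57% of all genes, 0.256% higher and 0.314% lower. At an unadjusted p under 0.05, 19 were higher (7.78% of all genes) and 1 was lower (6.51%). Mean cardiomyocyte markers were at 11.26 to 11.35 log2 CPM in WT RA, 10.97 to 11.10 in Het RA and 11.07 to 11.21 in KO RA, so here too WT lay above the others, and their part in the result was not tested. Olfml2b was at 33.7 and 35.1 CPM in the 2 WT RA libraries, 51.8, 54.8 and 49.1 CPM in Het RA and 48.1, 41.5 and 43.5 CPM in KO RA, so both groups lay above WT. Its edgeR fold was 1.52 in Het (log2 0.60, SE 0.09, adjusted p = 0.0247) and 1.3 in KO (log2 0.38, adjusted p = 0.0797). Mfap5, or microfibril-associated protein 5, was at 14.9 and 15.3 CPM in WT RA, 22.8, 21 and 22.9 CPM in Het RA and 17.6, 18.9 and 20.3 CPM in KO RA, with WT lowest throughout. Its edgeR fold was 1.48 in Het (log2 0.57, SE 0.10, adjusted p = 0.0371), and the KO difference was 0.34 (adjusted p = 0.138). Leaving out WT RA replicate 3 or the shared WT library leaves 1 WT library, which is then assumed to vary like the other groups. The 2 calls therefore cannot be checked in this way. Without Het RA replicate 1 or 3, 1 was called, Olfml2b, where 31 and 33 of all genes were called. DESeq2 called 10, all higher, the fit without a filter on low counts 18 higher and 1 lower, and the fit over all 17 libraries 0. Over all genes these called 395 (216 higher), 892 (570 higher) and 51 (16 higher). Scaling by library totals alone called 5, where 221 of all genes were called. Of the genes called, the share that was higher went from 44.9% to 78.7% in Het and from 45.6% to 61.2% in KO.

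No member was called between KO and WT in RA, where 0.523% of all genes were called (0.238% higher and 0.285% lower), and 8 of the 40 had an unadjusted edgeR p under 0.05 towards higher values (8.2% of all genes) and 1 towards lower values (6.38%). DESeq2 called 4, all higher, where it called 400 of all genes, 261 of them higher. The smallest p were those of Olfml2b, Ogn, Thbs1 and Mfap5. Ogn was at 170 and 159 CPM in WT RA, 195, 223 and 222 CPM in Het RA and 258, 194 and 231 CPM in KO RA, and its edgeR difference was 0.48 in KO (adjusted p = 0.0837). Thbs1 was at 6.57 and 8.21 CPM in WT RA, 8.36, 13.3 and 12.0 CPM in Het RA and 12.9, 13.4 and 11.0 CPM in KO RA, with a KO difference of 0.76 (adjusted p = 0.108). Both WT libraries lay below all others in these genes.

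Medians in RA over the 40 genes were 0.15 in KO and 0.38 in Het, against -0.00 and 0.01 over all genes tested, and 29 (49.4% of all genes) and 34 (51.8%) lay above 0. Het libraries lay above both WT libraries in 22 of the 40 (15.7% of all genes) and below them in 3 (17.6%), and KO libraries in 10 (17.6%) and 4 (19.4%). Lum and Fbln1 completed the 4 members with the smallest p in Het. Lum was at 113 and 98.5 CPM in WT RA, 159, 191 and 186 CPM in Het RA and 179, 126 and 135 CPM in KO RA, with an edgeR log2 difference of 0.77 in Het (adjusted p = 0.0638). Fbln1 was at 254 and 221 CPM in WT RA, 322, 290 and 307 CPM in Het RA and 282, 264 and 280 CPM in KO RA, a smaller difference than in LA, at 0.37 in Het (adjusted p = 0.0768).

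No member was called between KO and Het in either atrium. EdgeR's quasi-likelihood test called 0 of the 40 and 0% of all genes in LA, and 0 and 0% in RA. At an unadjusted p under 0.05, 0 of the 40 were higher (2.58% of all genes) and 1 lower (1.96%) in KO in LA, and DESeq2 called 0. The 1 was Adamtsl2, at -1.35 (SE 0.46, edgeR adjusted p = 0.974). Cthrc1 (0.84), Fndc1 (-0.81) and Cilp (-0.99) had the next smallest p in LA. In RA, 8 were lower (3.34%) and 1 was higher (2.92%) at that level, and DESeq2 called 1, where it called 16 of all genes. The smallest p was that of Thbs4, at 3.10, 5.56 and 5.08 CPM in Het RA and 8.19, 7.64 and 9.04 CPM in KO RA, with no overlap and a difference of 0.86 (SE 0.19, edgeR adjusted p = 0.724). Aldh1a2 (-0.49), Loxl1 (-0.34) and Olfml2b (-0.22) followed, each with an edgeR adjusted p of 0.778. The median of the 40 was -0.19 in LA and -0.20 in RA, with 8 (49.3% of all genes) and 7 (48.4%) above 0. Every Het animal expressed Xist and in KO only replicate 1 did, so this comparison is unbalanced in the sex pattern. With Xist as a covariate the medians were -0.02 in LA and -0.08 in RA.

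Whether the genotype differences themselves differed between the atria was tested as an interaction over all 17 libraries. No member was called for KO or for Het, and 0% of all genes were, while at an unadjusted edgeR p under 0.05 there were 1 higher and 3 lower for KO (1.92 and 2.03% of all genes) and 0 higher and 3 lower for Het (1.86 and 2.5%). The smallest p belonged to Fbln1, whose difference from WT was smaller in RA than in LA by 0.59 for KO (SE 0.22, adjusted p = 0.995) and by 0.64 for Het (SE 0.22, adjusted p = 1 in edgeR). Thbs4 (1.41), Tcf21 (-0.76) and Pdgfra (-0.95) came next for KO, and Gsn (-0.85), Pdgfrl (-1.02) and Adamtsl2 (-1.24) for Het. DESeq2 called 0 for both. The median over the 40 was -0.31 for KO and -0.32 for Het, with 9 (48.2% of all genes) and 10 (48.7%) above 0, and the medians were -0.02 and -0.05 without WT LA replicate 3. With the animal as a block and the shared WT library taken as animal 2, 1 member was called in each, Tcf21 for KO (-1.0, edgeR adjusted p = 0.00774). These fits called 98 (KO) and 154 (Het) of all genes. With the shared library taken as animal 1, 0 members were called, where 8 (KO) and 21 (Het) of all genes were.

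Within KO, replicate 1, the KO animal with Xist expressed, often lay with Het. In LA it and all Het libraries were above KO replicates 2 and 3 and all WT libraries in 13 of the 40 genes, against 3.32% of all genes, and were below them in none (3.07%). The 13 were Pdgfra, Ddr2, Pdgfrl, Dpt, Gsn, Lum, Prelp, Fn1, Fbln1, Adamtsl2, Smoc2, Olfml2b and Fndc1. Fndc1 in LA was at 16.5 CPM in KO replicate 1, 7.14 to 7.25 CPM in the other KO animals, 13.4 to 23.2 CPM in Het and 2.92 to 7.04 CPM in WT. In RA the same ordering held in 11 of the 40 (2.96% of all genes): Ddr2, Pdgfrl, Dpt, Lum, Fbln1, Fbn1, Loxl2, Smoc2, Vcan, Olfml2b and Aldh1a2. Smoc2 in RA was at 22.7 CPM in KO replicate 1, 9.54 to 12.0 CPM in the other KO animals, 23.2 to 25.4 CPM in Het and 7.98 to 9.07 CPM in WT. Cthrc1 had the opposite ordering in RA (3.63% of all genes). This ordering was chosen for description after the values had been seen and rests on 1 KO animal. With Xist as a covariate, which the KO group allows, 2 of the 4 KO calls in LA remained, where calls over all genes went from 1326 to 544. Those 2 were Fbln1 (log2 0.65, edgeR adjusted p = 0.0471), at 0.80 without it, and Wt1 (0.60, adjusted p = 0.0484), at 0.53 without it. Ogn was at 0.32 (adjusted p = 0.0836) and Fap at 0.73 (adjusted p = 0.104) with the covariate.

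The atria themselves differed in 20 of the 40 genes, 9 higher in RA and 11 higher in LA as a mean over the 3 genotypes, where edgeR called 28% of all genes, 13.5% higher and 14.4% lower in RA. The matricellular genes Thbs4 and Postn led the RA side, and the adventitial fibroblast marker Pi16 with Cilp and Vcan led the LA side. In Thbs4 and Postn every RA library lay above every LA library (2.62% of all genes), and in Pi16 every RA library lay below every LA library (2.74%). The median of the 40 was 0.03 against 0.01 over all genes, and 21 of 40 lay above 0 (52% of all genes), so the differences were on both sides.

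The promoters of Thbs4 and Postn, in which every RA library lay above every LA library, and of Ogn, which was called between genotypes as well as between atria, are shown here as the 250 bases before the gene's start in RefSeq, read 5′ to 3′ on the gene's strand, from RefSeq on GRCm38.p6. Capitals mark matches on either strand to GGAATG, the core of the site bound by TEAD factors (CATTCC on the other strand), or to the TATA box with its letters TATAAA (on the other strand, TTTATA). The Thbs4 promoter lies at chr13:92794819-92795068 on the minus strand, that for Postn at chr3:54360857-54361106 on the plus strand, and that for Ogn at chr13:49607765-49608014 on the plus strand.
Thbs4 promoter: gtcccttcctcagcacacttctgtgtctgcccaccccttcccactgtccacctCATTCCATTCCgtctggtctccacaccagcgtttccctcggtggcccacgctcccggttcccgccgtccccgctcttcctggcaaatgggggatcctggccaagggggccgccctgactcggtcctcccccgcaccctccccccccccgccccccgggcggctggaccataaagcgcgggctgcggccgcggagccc
Postn promoter: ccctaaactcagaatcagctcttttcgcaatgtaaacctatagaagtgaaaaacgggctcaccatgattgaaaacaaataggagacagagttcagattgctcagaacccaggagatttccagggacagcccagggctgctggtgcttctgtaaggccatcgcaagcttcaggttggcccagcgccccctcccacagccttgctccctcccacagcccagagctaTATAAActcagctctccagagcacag
Ogn promoter: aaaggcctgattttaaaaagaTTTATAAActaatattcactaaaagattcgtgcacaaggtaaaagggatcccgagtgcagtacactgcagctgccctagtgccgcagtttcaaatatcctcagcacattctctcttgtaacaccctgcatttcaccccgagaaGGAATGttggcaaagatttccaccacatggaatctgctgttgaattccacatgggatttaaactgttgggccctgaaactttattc
In the Thbs4 promoter the TEAD core matches begin 197 and 192 bases before the start and overlap, and in Ogn 1 lies 86 bases before it. Postn has a TATA box 26 bases before its start, the usual place of that element, and Ogn has 2 overlapping matches at 229 and 227 bases. The TEAD core was found in 12.6% of all 32851 promoter entries and in 3 of the 25 members with an entry (Ogn, Thbs4 and Upk3b). The TATA box was found in 12.4% and in 6 of 25 (Adamtsl2, Ddr2, Fndc1, Ogn, Postn and Tnc). TGANTCA, the AP-1 site, was found in 6.75% and in 0 members. These are matches of letters and show no binding. The same 250 bases before Pi16, in which every RA library lay below every LA library, held no match to these letters and are not printed.

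Among matricellular genes 3 were higher in RA and 3 in LA. Thbs4, thrombospondin 4, an injury-induced matrix protein that lies at chr13:92751590-92794818 on the minus strand, was at 0.610, 0.848 and 0.324 CPM in WT LA, 0.237, 0.0718 and 0.256 CPM in Het LA and 0.549, 0.198 and 0.0620 CPM in KO LA. In RA it was at 7.08 and 7.70 CPM in WT, 3.10, 5.56 and 5.08 CPM in Het and 8.19, 7.64 and 9.04 CPM in KO. The highest LA library was below the lowest RA library, and the edgeR fold was 20.7 (log2 4.37, SE 0.24, adjusted p = 1.76e-09). The LA level rests on 2 to 23 counts in a library, against 85 to 267 in RA. Postn, at chr3:54361109-54391037 on the plus strand, was at 27.8 to 93.2 CPM in the 9 LA libraries with a median of 69.7 CPM, and at 109 to 213 CPM in the 8 RA libraries with a median of 146 CPM. The edgeR fold was 2.09 (log2 1.07, SE 0.19, adjusted p = 0.00112), and no libraries overlapped. Olfml2b was at 9.46 to 41.3 CPM in LA (median 25.1 CPM) and 33.7 to 54.8 CPM in RA (median 45.8 CPM), with a fold of 1.81 (log2 0.86, SE 0.13, edgeR adjusted p = 0.00019).

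On the LA side of this group were Cilp, Vcan and Smoc2. Vcan, the large proteoglycan versican of loose matrix and valves, was at 13.3 to 72.6 CPM in LA (median 54.7 CPM) and 14.9 to 30.3 CPM in RA (median 20.4 CPM), and its edgeR fold towards LA was 2.53 (log2 -1.34, SE 0.25, adjusted p = 0.00174). The only LA library below the highest RA library was WT LA replicate 3. Cilp was at 1.1 to 10.4 CPM in LA and 0.879 to 1.5 CPM in RA, with a fold towards LA of 3.44 (log2 -1.78, SE 0.33, edgeR adjusted p = 0.00112), and here too only WT LA replicate 3 lay within the RA range. Smoc2 was at 11.8 to 50.3 CPM in LA and 7.98 to 25.4 CPM in RA, with a log2 difference of -1.09 (SE 0.19, edgeR adjusted p = 0.000859). Sparc had no call (-0.27, edgeR adjusted p = 0.0652), but was lower in RA with the animal as a block and the shared library as animal 1 (-0.16, adjusted p = 0.0128). The atrial difference of Smoc2 had the same sign in WT (-1.07), Het (-0.83) and KO (-1.34), taken as differences of mean log2 CPM.

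Of the fibroblast identity genes, Tcf21 was higher in RA, and Pi16 and Fap were higher in LA. Pi16, peptidase inhibitor 16, at chr17:29317680-29330593 on the plus strand, was at 61.1, 91.4 and 39.8 CPM in WT LA, 57.9, 88.5 and 71.1 CPM in Het LA and 67.8, 75.1 and 77.5 CPM in KO LA. In RA it was at 9.67 and 8.43 CPM in WT, 7.99, 8.36 and 6.47 CPM in Het and 6.65, 8.05 and 6.50 CPM in KO. The lowest LA library, WT replicate 3, was still above the highest RA library, and the edgeR fold towards LA was 8.90 (log2 -3.15, SE 0.16, adjusted p = 1.51e-08). Tcf21 was at 4.15 to 16.3 CPM in LA (median 12.2 CPM) and 13.9 to 23.3 CPM in RA (median 18 CPM), with a log2 difference of 0.70 (SE 0.13, edgeR adjusted p = 0.00118). The difference of means for Tcf21 was 1.26 in WT, 0.50 in Het and 0.44 in KO. Fap differed by -0.42 (SE 0.13, edgeR adjusted p = 0.0174), while Pdgfra (-0.22), Ddr2 (0.01), Dpt (0.17) and Gsn (0.24) had no call. Pdgfrl differed by 0.50 (edgeR adjusted p = 0.0589), and by 0.61 (adjusted p = 0.0241) or 0.58 (adjusted p = 0.0402) with the animal as a block.

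**Figure D4:**
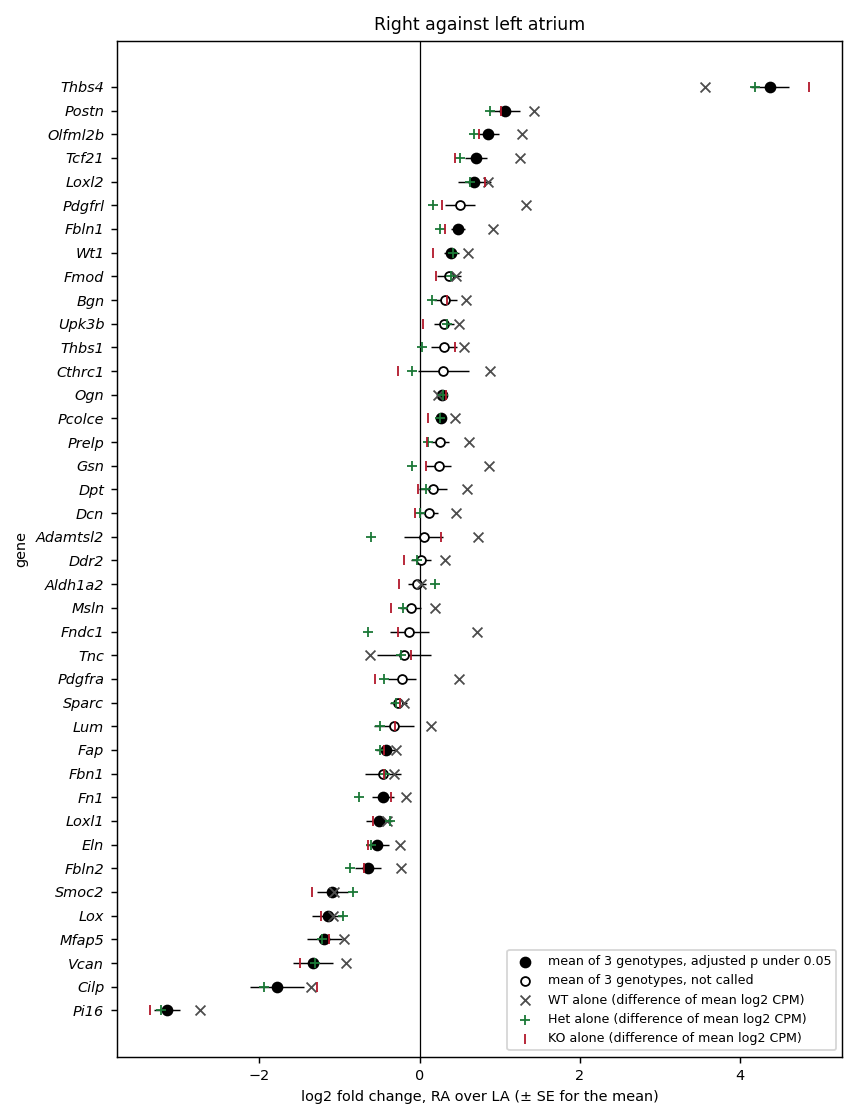
Log2 fold change of RA over LA for each of the 40 genes, as the mean over 3 genotypes from edgeR's quasi-likelihood fit with its SE (circles, filled where the adjusted p was under 0.05) and within each genotype as the difference of mean log2 CPM (crosses, plus signs and ticks). Of the 20 filled points, 9 lie to the right of 0 and 11 to the left, with Thbs4 at 4.37 and Pi16 at -3.15 as the extremes.

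Fibre genes leaned to LA, with 4 of 6 called there and 1 in RA. Mfap5 was at 14.6 to 62.9 CPM in LA (median 42.3 CPM) and 14.9 to 22.9 CPM in RA (median 19.6 CPM), a log2 difference of -1.19 (SE 0.22, edgeR adjusted p = 0.00147). Only WT LA replicate 3 lay below the highest RA library. Eln (-0.53, edgeR adjusted p = 0.0173), Fbln2 (-0.64, 0.0114) and Fn1 (-0.46, 0.028) were also higher in LA. Fbln1 was higher in RA, at 103 to 289 CPM in LA and 221 to 322 CPM in RA, with a difference of 0.48 (SE 0.09, adjusted p = 0.000633), and the within-genotype values were 0.91 in WT, 0.25 in Het and 0.32 in KO. With the animal as a block, the edgeR adjusted p of Fbln2 was 0.0579 or 0.0793 and that of Fn1 0.141 or 0.145, depending on the WT animal to which the shared library was given. The call of Fn1 was also lost in 8 of the 17 fits that leave out 1 library, and that of Eln without either WT RA library (edgeR adjusted p up to 0.0537).

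The crosslinking genes divided between the chambers. Lox, the main lysyl oxidase, was at 5.05 to 18 CPM in LA (median 13.3 CPM) and 4.19 to 9.51 CPM in RA (median 5.94 CPM), a log2 difference of -1.15 (SE 0.19, edgeR adjusted p = 0.000543). Loxl1, which acts on elastin, was also higher in LA (-0.51, adjusted p = 0.0325), but its adjusted p was 0.101 with the animal as a block and the shared library as animal 2, and the call was lost in 9 of 17 fits that leave out 1 library. Loxl2, which acts on basement membrane collagen, was higher in RA, at 2.72 to 10.5 CPM in LA and 8.52 to 15.9 CPM in RA (log2 0.68, SE 0.20, edgeR adjusted p = 0.0213), as was Pcolce (0.26, adjusted p = 0.0114). Adamtsl2, called in Het LA, differed by 0.05 between atria over the genotypes.

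Of the proteoglycans, Ogn was higher in RA, at 126 to 190 CPM in LA and 159 to 258 CPM in RA (log2 0.28, SE 0.06, edgeR adjusted p = 0.00161), with like values in WT (0.23), Het (0.29) and KO (0.32). The other 5 had no call, between -0.33 for Lum and 0.36 for Fmod. With the animal as a block, Bgn (0.44, edgeR adjusted p = 0.0261) was called with the shared library as animal 1, and Fmod (0.40, adjusted p = 0.0109) and Prelp (0.34, adjusted p = 0.0488) with it as animal 2, all higher in RA. Of the epicardial genes, Wt1 was higher in RA, at 12.2 to 26.0 CPM in LA and 20 to 35.0 CPM in RA (log2 0.39, SE 0.10, edgeR adjusted p = 0.00593). Upk3b (0.30), Msln (-0.11) and Aldh1a2 (-0.04) had no call. Markers of other cells also differed by chamber: mean cardiomyocyte markers were at 11.30 to 11.74 log2 CPM in LA and 10.97 to 11.35 in RA, and endothelial markers at 6.23 to 7.05 and 6.79 to 7.33. Their part in these results was not tested.

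**Figure D5:**
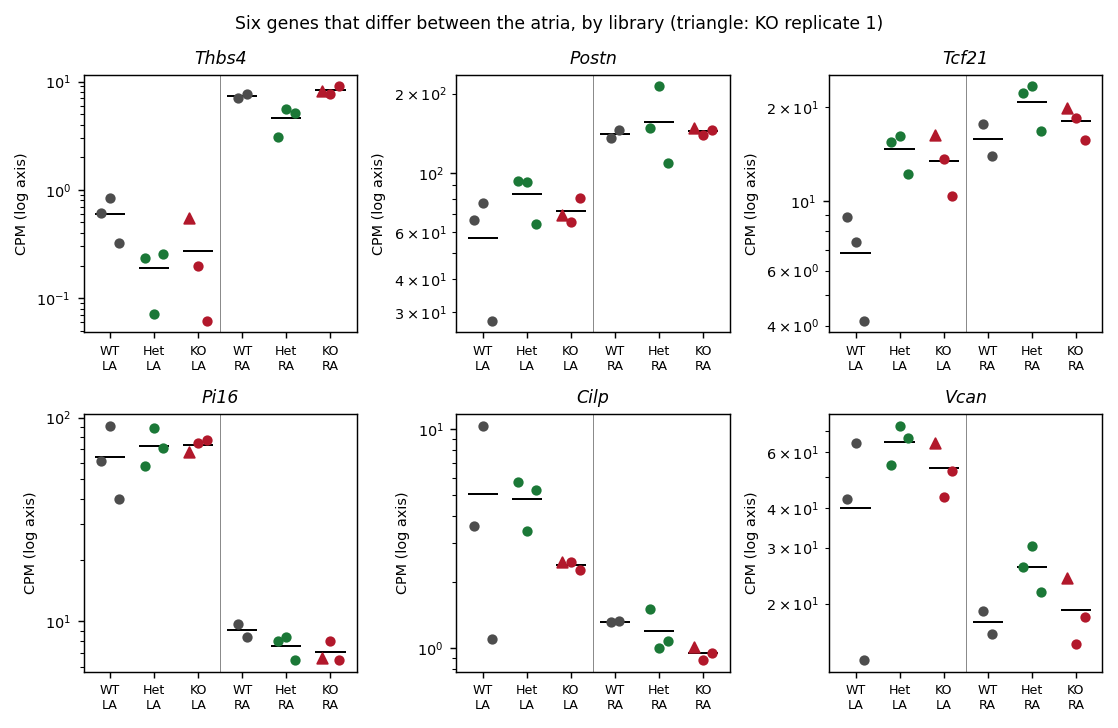
CPM on a log axis of Thbs4, Postn, Tcf21, Pi16, Cilp and Vcan in each library, by genotype and atrium, with the group mean as a bar and KO replicate 1 as a triangle. The LA and RA libraries do not overlap in Thbs4, Postn and Pi16, and in Cilp and Vcan the WT LA replicate 3 point alone falls below the highest RA value.

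The members varied together across libraries, though much of this followed 1 library. Among the 38 members with enough counts, Pearson's r of log2 CPM over the 9 LA libraries had a median of 0.745 over 703 pairs of genes, and of 0.309 without WT LA replicate 3. Over the 8 RA libraries it was 0.361. These are descriptions over libraries that share genotype groups, scaling and, across atria, animals. Over all 17 libraries the gene whose levels were closest to those of Fbln1 was Tcf21 (r = 0.95), and the pairs Pdgfrl and Dpt (0.95) and Mfap5 and Vcan (0.94) were as close. Pi16 and Thbs4, which follow the atrium, had median correlations with the other members of -0.07 and -0.06, and Fmod (0.08) and Msln (0.05) also stood apart from the rest.

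The other genes of these pathways were read from longer lists, against 3.42% of all genes called higher and 4.39% lower in KO LA and 4.02% and 5.38% in Het LA. In KO LA, 2 of 20 other fibroblast genes were higher than in WT (Osr1 and Tbx20, both transcription factors) and 6 of 47 tested matrix glycoprotein and proteoglycan genes (Abi3bp, Ecm2, Has2, Lama4, Olfml2a and Sparcl1), and none was lower. Over both atria Tbx20 was at 221 to 605 CPM and Osr1 at 3.56 to 18.8 CPM. Which cells of the tissue express Tbx20 cannot be told from bulk samples. Without WT LA replicate 3, the KO counts were 1 higher and 1 lower of 20, and 4 higher of 47, where 1.28% of all genes were called higher and 1.48% lower. In Het LA, 2 of 20 fibroblast genes, 13 of 47 matrix genes and 4 of 22 crosslinking and processing genes were higher and none was lower, Has2, which synthesises hyaluronan, by 1.16 (edgeR adjusted p = 0.0157). Without that library the Het counts were 2 of 20, 10 of 47 and 2 of 22, all higher, where 1.95% of all genes were called higher and 1.92% lower. Of 15 other epicardial and mesothelial genes, 0 were called in either, of 22 crosslinking and processing genes 0 in KO. In RA, 2 of the 47 matrix genes were higher and 1 was lower in each of KO (0.238% and 0.285% of all genes) and Het (0.256% and 0.314%). Of the 22 crosslinking and processing genes, 1 was higher in KO RA, Adamts1 (0.54, edgeR adjusted p = 0.0333), and 1 in Het RA, Pcolce2 (0.60, edgeR adjusted p = 0.0295). Ecm2 was higher in KO (0.54, edgeR adjusted p = 0.0277) and Het (0.54, adjusted p = 0.0325) and Ccn5, a matricellular gene, was lower in KO (-1.30, adjusted p = 0.0333) and Het (-1.46, adjusted p = 0.0284).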

How the data were processed

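Per the labels, RNA was isolated with a Direct-zol kit, made into KAPA mRNA HyperPrep libraries and sequenced on a NovaSeq. Per the submitters' processing notes, the tools were STAR 2.7.9a and DESeq2 1.30.1 with the mm10 build. The table the authors deposited holds unnormalized read counts per gene ID. The annotation release, the counting rule and any use of strand were not stated in what was used here, and how they affect overlapping genes is unknown. Symbols were matched for 52073 of 56691 gene IDs after dropping the version; coordinates are those of GENCODE M21 on GRCm38, in which 0 of the 40 ID versions were found. IDs without a symbol held 0.418 to 2.63% of counts in a library, more in WT than in Het and KO. All 18 columns were mapped, and 0 were left unused.

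Genotypes were compared within an atrium in a fit of the 3 genotypes, and atria and interactions in a fit of all 17 libraries, with edgeR 4.0.16 (glmQLFTest, TMM, filterByExpr with a minimum count of 10) and limma 3.58.1 in R 4.3.3. P-values were adjusted over all genes tested, with 0.05 as the threshold. CPM per library are TMM-scaled, and log2 CPM use a prior count of 2. DESeq2 1.42.0, other scalings and filters, libraries left out, an Xist covariate and blocks were alternatives. Scripts were tested on simulated data. LA and RA of 1 animal share its ID, so the animal was also fitted as a block. Deviations of LA and RA libraries paired by ID correlated at 0.158 to 0.411 over 8 animals. The 0.158 takes the shared WT RA library as that of animal 1, and with animal 2 it was 0.120. The pair of WT RA columns with equal counts gave 1 library, entered as animal 1 or 2. Numbers shared across genotypes name different animals. Members and gene lists were chosen with earlier results of these data known. Every called member is named; where fewer than 4 were called, those with the smallest p fill up to 4. Depth sets counting error only. P-values within an atrium rest on the spread between animals, with a dispersion shared by the 3 genotypes. In the fits of all 17 libraries without a block, LA and RA of 1 animal counted as independent. A further marker of the chambers and a further promoter motif are not reported here.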

Additional observations from a re-analysis of the deposited data

How the results depend on the processing

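The LA comparisons with WT and both RA comparisons changed in size with the settings, and no called value changed sign. KO against WT in LA had 11 calls with DESeq2, 0 with only those 2 genotypes fitted, 8 with all 17 libraries in 1 fit, 2 with Xist as a covariate and 0 to 5 with 1 library left out. Over all genes these fits called 1846, 662, 2016, 544 and 249 to 1475, against 1326 in the main fit. Het against WT in LA had 15 with DESeq2, 15 with library totals only (a scaling chosen after seeing the data), 3 with only those 2 genotypes, 15 with all 17 libraries and 1 to 7 with 1 library left out. Over all genes these fits called 2183, 4528, 1037, 2392 and 307 to 1742, against 1596 in the main fit. KO against WT in RA had 4 with DESeq2, 5 without a filter, 2 with those 2 genotypes only, 4 with the identical columns as 2 libraries and 0 to 1 with 1 library left out. Het against WT in RA had 10 with DESeq2, 5 with library totals only, 19 without a filter, 6 with those 2 genotypes only, 0 with all 17 libraries, 10 with the identical columns as 2 libraries and 0 to 3 with 1 library left out. Over all genes, KO against WT in RA had 400 calls with DESeq2, 850 without a filter and 377 with those 2 genotypes only. It had 909 with the identical columns as 2 libraries, against 90 in the main fit. In the same settings Het against WT in RA had 395, 892, 125 and 737 over all genes, against 98. With 1 KO or 1 Het RA library left out, all genes had 9 to 77 calls in KO and 31 to 47 in Het. KO against Het in RA had 1 with DESeq2, 7 without a filter and 0 to 1 with 1 library left out, against 16, 210 and 0 to 15 over all genes. RA against LA had 32 without a filter and 15 to 23 with 1 library left out, and the interactions 8 (KO) and 6 (Het) without a filter. With the replicate number as a block, which pairs no animals across genotypes (deviations of same-numbered libraries correlated at -0.105 to 0.144), Het against WT in RA had 4 calls, KO against WT in LA 3 and Het against WT in LA 8. With the animal as a block and the shared library as WT animal 2, each interaction had 1 call, and RA against LA had 21 or 20 with it as either animal. Over all genes, RA against LA then had 6207 calls with it as animal 1 and 6544 as animal 2, against 5042 in the main fit. The interactions had 98 (KO) and 154 (Het) over all genes with it as animal 2. The median of the 40 ranged over the settings from 0.17 to 0.71 in KO and from 0.31 to 0.86 in Het in LA. Without a filter, all genes had 5237 calls in RA against LA, and 140 (KO) and 163 (Het) in the interactions. With 1 library outside WT RA left out, all genes had 4594 to 5085 calls in RA against LA. With the replicate number as a block, all genes had 152 calls in Het against WT in RA. In LA that block gave 1143 in KO and 1586 in Het against WT. The cause of the changes between settings was not tested. Few counts limit Cthrc1, Tnc and, in LA, Thbs4.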

Other observations

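Among fibroblast and matrix genes outside the 40, several differed more between the atria than most members did. Scara5, a marker of adventitial fibroblasts as Pi16 is, was lower in RA by a log2 difference of -4.29 (edgeR adjusted p = 2.89e-09), and Clec3b by -2.13 (adjusted p = 8.16e-07 in edgeR). Has2, a hyaluronan synthase, differed by -2.90 (edgeR adjusted p = 5.17e-09) and Mfap4, a microfibril protein, by -2.56 (edgeR adjusted p = 9.98e-07). P4ha3, a prolyl hydroxylase of collagen, was higher in RA by 1.88 (edgeR adjusted p = 3.49e-06). Of all genes, 13.5% were called higher in RA and 14.4% lower. Against this, 12 of 20 other fibroblast genes were lower in RA and 3 were higher, and of 22 other crosslinking and processing genes 9 were lower and 3 higher. The 47 other matrix genes were called in both directions alike, 13 each way, and of 15 other epicardial and mesothelial genes 1 was lower, the complement gene C3 (-0.83, edgeR adjusted p = 0.00179), and 0 were higher.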
